A study of Mus musculus with 6 samples.

Results

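Immediate early genes are switched on within minutes of a stimulus, without new protein synthesis, by transcription factors that are already present in the cell. Serum response factor with its ternary complex partners and CREB act at many of their promoters, and the products include the AP-1 factors (Jun and Fos proteins), the EGR and NR4A factors and the feedback inhibitors that end the response. Enzymatic digestion of tissue and cell sorting are known to induce many of these genes and the stress-inducible HSP70 genes, so that in sorted fibroblasts they can carry both signalling in the tissue and the handling of the cells.

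The levels of 38 such genes were compared in cancer-associated fibroblasts (CAFs) from colonic adenomas. The genes were listed by symbol, and each symbol was matched to the gene name in the deposited table, in which all 38 had a row among 49548 genes. The list was drawn up with earlier results of these libraries in view, so that their differences between the populations, with the p-values, are given as a description and not as independent evidence. All 38 were among the 26402 genes tested, and 37 averaged 10 normalized counts or more, the exception being Egr3. They fall into 11 roles: AP-1 and related bZIP factors, EGR factors, NR4A receptors, Krüppel-like factors, the IER family with Csrnp1, MAP kinase phosphatases, mRNA decay and antiproliferative factors, cytokine pathway inhibitors, GADD45 proteins, heat shock proteins and the small GTPase gene Rhob.

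The 6 libraries came from C57/BL6 mice with the genotype Col6a1-cre, Rosa26-mTmG that had gone through the AOM/DSS protocol, in which the carcinogen azoxymethane is followed by cycles of dextran sodium sulfate in the drinking water. All mice were therefore tumor-bearing, and both populations carried the Cre transgene and the reporter. In this reporter strain, Cre replaces membrane Tomato with GFP, so that GFP marks cells in which the Col6a1 promoter drove Cre at any time (Col6a1+ CAFs, 3 libraries), and Tomato marks the remaining CD45-, EpCAM-, CD31- and Ter119-negative cells (Col6a1− CAFs, 3 libraries). The adult mice were of both sexes, the tumors of several mice were pooled for each sample, and both populations were sorted from adenomas digested with Collagenase IV, dispase and DNAse. Pericytes and fibroblasts are mixed in the Col6a1+ population, and in bulk libraries more cells of a type and more RNA per cell cannot be told apart.

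The deposited values are the log2 of the normalized count plus 1, and levels are given here as normalized counts, that is reads per gene divided by a size factor for each library. The sums per library ranged from 3039152 to 3425249 normalized counts, and the reads behind them, estimated from the steps between low values, from 2568312 to 4518513. Col6a1+ replicate 1 stood apart with 14530 genes detected, against 18770 to 20511 in the other five. The mural markers, among them Rgs5 and Cspg4, summed to between 52713 and 106151 in the Col6a1+ libraries and between 1544 and 4039 in the Col6a1− libraries, and all 10 passed the test. The fibroblast markers Col1a1 and Col1a2 were detected in every library. The 7 fibroblast markers summed to between 38329 and 43118 in the Col6a1+ libraries and between 6901 and 13967 in the Col6a1− libraries. Of these 7, 5 passed with higher levels in Col6a1+ CAFs and 0 with lower levels. Epithelial transcripts remained after the sort, with a sum of 10 markers of 5722 to 6365 in Col6a1+ and 19976 to 33607 in Col6a1− CAFs, and 7 of the 10 were lower in Col6a1+ CAFs. In Col6a1− replicates 1, 2 and 3, the epithelial sums of 19976, 33607 and 24161 exceeded the fibroblast sums of 13967, 13887 and 6901. Immune markers summed to 115 to 297 and 412 to 662, endothelial markers to 1091 to 1441 and 183 to 372, erythroid markers to 110 to 1713 and 281 to 482, and glial markers to 55 to 73 and 29 to 76. The endothelial markers Esam and Tie1 passed with higher levels in Col6a1+ CAFs, and Esam made up most of the sum there, whereas the median log2 fold change of the 8 endothelial markers was -1.59 and Pecam1 had at most 27 normalized counts in a Col6a1+ library and at most 64 in a Col6a1− library. The part of these other cell types in the results below was not tested.

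The promoters of the 6 genes that passed the test with higher levels in Col6a1+ CAFs are shown with the short motifs that stimulus-responsive factors are known to bind. Each window holds 250 bases before and 50 after the RefSeq start site on GRCm38.p6, is written 5′ to 3′ on the gene's strand, and has in capitals its matches to the motifs named beside it. Hspa1a and Hspa1b encode the inducible HSP70 chaperones, and the capitals mark GAANNTTC, a form of the heat shock element bound by HSF1, in chr17:34972107-34972406 (minus strand) and chr17:34959189-34959488 (minus strand).
Hspa1a: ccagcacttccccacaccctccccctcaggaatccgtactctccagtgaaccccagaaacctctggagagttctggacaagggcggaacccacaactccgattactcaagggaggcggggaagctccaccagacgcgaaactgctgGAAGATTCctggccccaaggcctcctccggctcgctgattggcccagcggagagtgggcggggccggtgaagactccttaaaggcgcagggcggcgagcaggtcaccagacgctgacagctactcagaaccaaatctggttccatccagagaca
Hspa1b: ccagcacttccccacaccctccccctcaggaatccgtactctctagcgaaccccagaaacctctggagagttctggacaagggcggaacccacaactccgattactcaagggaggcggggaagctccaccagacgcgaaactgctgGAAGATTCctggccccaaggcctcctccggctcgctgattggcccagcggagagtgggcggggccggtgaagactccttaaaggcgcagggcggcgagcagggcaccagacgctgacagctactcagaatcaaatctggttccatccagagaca
Both windows hold the element at position -104 from the start site, and 296 of their 300 bases are identical (98.7%).

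The NR4A receptors Nr4a1 and Nr4a3 are classical targets of CREB, and the capitals mark the core of its element, TGACG, on either strand, together with the EGR element GCGNGGGCG. The windows are chr15:101266596-101266895 (plus strand) and chr4:48045055-48045354 (plus strand).
Nr4a1: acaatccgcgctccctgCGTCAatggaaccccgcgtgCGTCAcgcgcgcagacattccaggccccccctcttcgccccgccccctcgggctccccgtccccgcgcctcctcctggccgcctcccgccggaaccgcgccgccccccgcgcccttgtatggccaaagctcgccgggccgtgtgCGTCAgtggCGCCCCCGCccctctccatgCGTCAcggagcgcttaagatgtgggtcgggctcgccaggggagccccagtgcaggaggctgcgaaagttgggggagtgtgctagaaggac
Nr4a3: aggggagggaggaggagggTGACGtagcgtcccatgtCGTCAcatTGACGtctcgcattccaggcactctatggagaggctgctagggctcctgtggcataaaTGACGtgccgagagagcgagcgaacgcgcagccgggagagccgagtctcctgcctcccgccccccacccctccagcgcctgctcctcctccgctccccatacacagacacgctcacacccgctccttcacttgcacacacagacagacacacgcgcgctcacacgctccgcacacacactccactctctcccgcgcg
Each of the pair holds the CREB core at 4 positions, which lie at -233, -213, -69 and -40 from the start site in Nr4a1 and at -231, -213, -205 and -147 in Nr4a3.

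Klf2 encodes a Krüppel-like factor of quiescent and shear-exposed vascular cells, and its window (chr8:72318812-72319111, plus strand) is marked for the same pair of motifs. Socs3 encodes the feedback inhibitor of STAT3 signalling by the IL-6 family, and in its window (chr11:117969317-117969616, minus strand) the capitals mark the STAT element TTCNNNGAA and the EGR element. The RefSeq starts of Socs3, Klf2 and Nr4a3 lie inside the spans of these genes in the deposited table.
Klf2: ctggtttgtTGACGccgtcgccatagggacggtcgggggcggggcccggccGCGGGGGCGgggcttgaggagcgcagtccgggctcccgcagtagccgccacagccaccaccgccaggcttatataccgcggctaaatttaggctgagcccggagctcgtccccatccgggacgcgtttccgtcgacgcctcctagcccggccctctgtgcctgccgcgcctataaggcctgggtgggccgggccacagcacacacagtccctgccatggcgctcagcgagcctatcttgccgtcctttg
Socs3: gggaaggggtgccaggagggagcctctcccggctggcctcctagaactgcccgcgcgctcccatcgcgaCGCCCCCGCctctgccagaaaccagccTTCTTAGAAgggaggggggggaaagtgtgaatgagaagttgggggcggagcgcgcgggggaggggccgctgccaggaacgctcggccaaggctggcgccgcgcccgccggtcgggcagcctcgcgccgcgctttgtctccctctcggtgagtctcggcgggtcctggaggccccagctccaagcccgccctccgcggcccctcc

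Promoter windows were found for 34 of the 38 genes and for 27025 genes in all, and a gene with several starts was counted once if any of its windows held the motif on either strand. The CREB core TGACG was present for 17 of the 34 (50%) and for 23% of all genes. The EGR element GCGNGGGCG was present for 11 (32.4%, among them Fosb, Nr4a1, Klf2 and Socs3) and for 6.27% of all genes. The full CREB element TGACGTCA, which contains the core, was present for Maff, Dusp1 and Btg2 (8.82% against 2.03% of all genes), and the CArG box of serum response factor for Egr2, Dusp5 and Zfp36 (8.82% against 1.81%). Shares closer to those of all genes, or lower, were seen for the AP-1 element TGANTCA (5.88% against 8.97%), for the heat shock elements GAANNTTC (11.8% against 9.04%) and TTCNNGAA (2.94% against 9.6%) and for the STAT element TTCNNNGAA (11.8% against 9.55%). A match describes the letters of a window and not a bound site.

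Of the 38 genes, 26 had a higher and 12 a lower mean log2 value in Col6a1+ CAFs. Levels of Hspa1a, Hspa1b, Nr4a1, Nr4a3, Klf2 and Socs3 were higher in Col6a1+ CAFs and that of Dusp6 was lower at an adjusted p under 0.05 (limma on the log2 values over all genes tested, Benjamini-Hochberg adjustment), and 31 genes did not pass. Differences are given below as the log2 fold change ± its standard error (SE). These 6 are 15.8% of the genes, where 2.66% of all genes tested passed in this direction, and the 1 that was lower is 2.63%, where 1.96% passed (4.62% in either direction). Among the genes averaging 100 normalized counts or more, to which 35 of the 38 belong, 9.2% passed with higher and 4.99% with lower levels. The median log2 fold change of the 38 genes was 0.47, and that of all genes tested was -0.27. For the 37 genes averaging 10 or more, the 3 libraries of each population did not overlap in 17 cases with higher and 4 with lower levels in Col6a1+ CAFs (45.9% and 10.8%), against 14.2% and 17.6% of the 13515 genes at this level. Since the list was made with this contrast known, nothing is read from these shares.

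With the replicate number as a block, which takes each Col6a1+ library together with the Col6a1− library of the same number, no gene of the 26402 passed (0% called, smallest limma adjusted p = 0.0612), although 14 of the 38 genes were higher and 6 lower at an unadjusted p under 0.05, as were 7.01% and 9.72% of all genes. A second blocked fit, tried only once the data had been seen, took the 13515 genes averaging 10 or more, and in it 8 of the 38 were higher and 4 lower, against 7.26% and 6.44% of these genes. An adjusted p called blocked below comes from the first of these fits. When Col6a1+ replicate 1, 2 or 3 was left out, 4, 3 and 1 of the 38 genes passed with higher levels, as did 1.73%, 1.15% and 0.694% of all genes tested. When Col6a1− replicate 1, 2 or 3 was left out, none of the 38 passed by limma, where 0.0426%, 0.71% and 0.403% of all genes passed with higher levels. At an unadjusted p under 0.05, 10, 9 and 11 of the 38 were higher in these last 3 fits, as were 6.13%, 5.93% and 5.5% of all genes. No gene of the 38 passed with a lower level in the 6 fits without 1 library, in which 3 to 6 were lower at an unadjusted p under 0.05 (7.68% to 9.81% of all genes). In limma-voom, 8 of the 38 were higher and 2 lower, as were 2.92% and 3.02% of all genes. Over all the alternatives, the adjusted p spanned 0.00103 to 0.0783 for Hspa1b, 0.0020 to 0.0921 for Hspa1a, 0.00974 to 0.157 for Nr4a1, 0.0106 to 0.116 for Nr4a3, 0.00837 to 0.218 for Klf2, 0.00687 to 0.172 for Socs3 and 0.0103 to 0.134 for Dusp6.

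**Figure D1:**
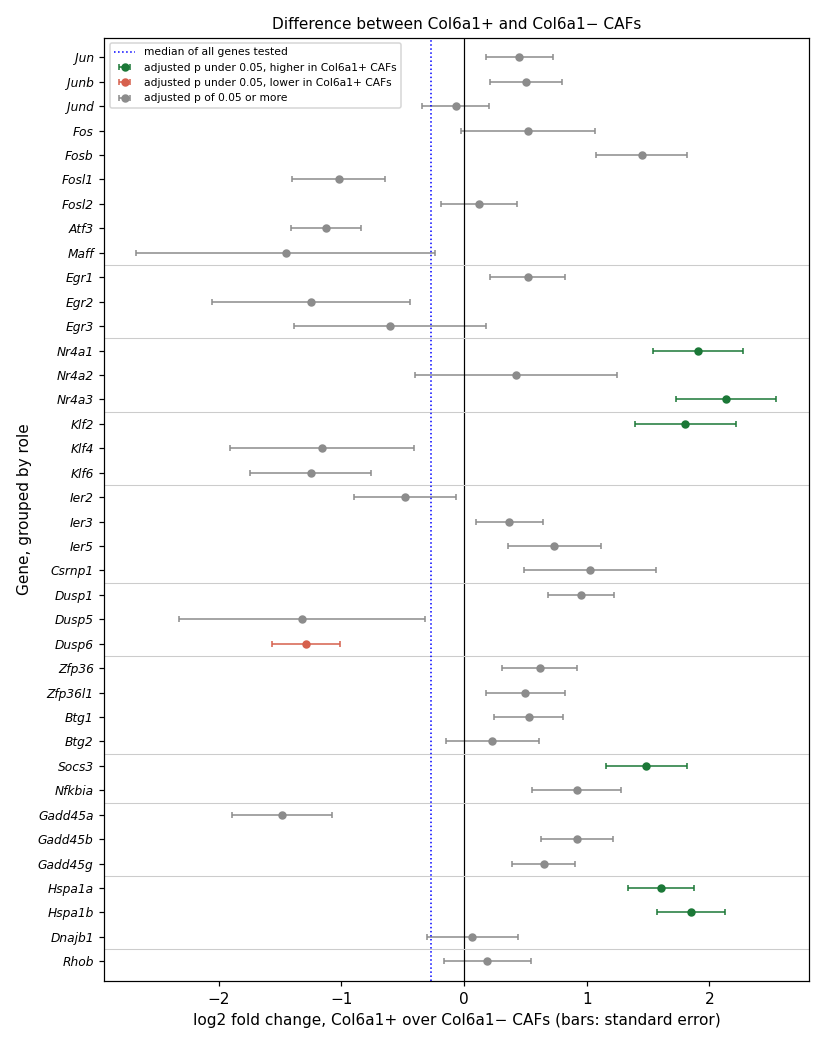
Log2 fold change of each of the 38 genes between Col6a1+ and Col6a1− CAFs (horizontal axis, positive when higher in Col6a1+ CAFs), with the standard error from limma as bars and the genes grouped by role on the vertical axis. The 6 green points passed an adjusted p of 0.05 with higher levels, the 1 red point with a lower level, and the dotted line is the median of all genes tested, -0.27.

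Of the heat shock genes, both HSP70 genes were higher in Col6a1+ CAFs, and the co-chaperone gene Dnajb1 did not pass. Hspa1a (ENSMUSG00000091971, chromosome 17 from 34969190 to 34972156 of mm10, minus strand) had 5939, 7294 and 8702 normalized counts in the Col6a1+ libraries and 2290, 2526 and 2303 in the Col6a1− libraries, in order of replicate. Hspa1b (ENSMUSG00000090877, chromosome 17 from 34956436 to 34959238, minus strand) had 7733, 8528 and 11219 and 2827, 2426 and 2303. For both, the lowest Col6a1+ library was well above the highest Col6a1− library, and Col6a1+ replicate 3 was the highest. Their log2 fold changes were 1.61 ± 0.27 (SE, limma adjusted p = 0.0087, blocked 0.0612) and 1.85 ± 0.28 (SE, limma adjusted p = 0.00502, blocked 0.0612), that is 3.05-fold and 3.6-fold. The transcripts of these neighbouring genes are 94.2% identical over 2713 aligned bases of the GENCODE M21 annotation. Of the windows of 50 bases over the whole transcripts, 58.8% of those of Hspa1a and 62.3% of those of Hspa1b occurred in the other. None of the 251 windows in the last 300 bases of either transcript, the part that 3′ sequencing reads, occurred in the other. Only exact matches were sought, and where the reads fell was not examined, so reads shared between the 2 genes were not tested. Dnajb1, which encodes an HSP40 co-chaperone of HSP70, had 373, 671 and 1057 normalized counts in Col6a1+ and 558, 698 and 590 in Col6a1− CAFs. Its levels overlapped and its log2 fold change was 0.07 ± 0.37 (SE).

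Of 21 further heat shock and chaperone genes, Cryab and Dnajb4 were higher in Col6a1+ CAFs and none was lower. Of all genes tested, 2.66% passed with higher and 1.96% with lower levels. Among genes averaging 100 normalized counts or more, the shares were 9.2% and 4.99%, and nothing is read from the 2 calls. Cryab, the small heat shock protein alphaB-crystallin, which muscle-type cells express, had 313, 283 and 913 normalized counts in Col6a1+ and 135, 47 and 75 in Col6a1− CAFs. Cryab differed by a log2 fold change of 2.45 ± 0.52 (SE, limma adjusted p = 0.0248, blocked 0.119). Dnajb4 had 311, 366 and 317 and 91, 118 and 97 (log2 fold change 1.69 ± 0.31 SE, limma adjusted p = 0.0128). The median log2 fold change of the 21 genes was -0.09, and the constitutive HSP70 gene Hspa8 had 4549, 4492 and 4342 normalized counts in Col6a1+ and 5380, 5400 and 5165 in Col6a1− CAFs. Every Col6a1+ library lay below the Col6a1− libraries for Hspa8, by a log2 fold change of -0.25 ± 0.25 (SE). Hsph1 and Hsp90ab1, an HSP110 and an HSP90 gene, had log2 fold changes of -0.78 ± 0.59 (SE) and -0.58 ± 0.72 (SE), and that of Hsf1, the heat shock factor, was -0.54 ± 0.56 (SE). None of Hspa8, Hsph1, Hsp90ab1 and Hsf1 passed. Hspb1, which did not pass either, lay the other way without overlap. It had 1044, 991 and 1832 normalized counts in Col6a1+ and 840, 384 and 530 in Col6a1− CAFs (log2 fold change 1.16 ± 0.36 SE, limma adjusted p = 0.115). Of the 21 genes, 7 had a positive and 14 a negative log2 fold change. Hspa8, Hsph1, Hsp90ab1, Hsf1, Hspb1 and Dnajb4 were named after their values were seen.

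The NR4A receptors are orphan nuclear receptors that are regulated by their abundance. Nr4a1 (ENSMUSG00000023034, chromosome 15 from 101266846 to 101274792, plus strand) had 4215, 2803 and 7854 normalized counts in Col6a1+ and 1271, 1308 and 1055 in Col6a1− CAFs. Nr4a3 (ENSMUSG00000028341, chromosome 4 from 48045153 to 48086447, plus strand) had 138, 225 and 202 and 40, 56 and 31. Neither gene overlapped between the populations, and the level of Nr4a1 spread 2.8-fold within Col6a1+ CAFs. The log2 fold changes were 1.91 for Nr4a1 (SE 0.37, limma adjusted p = 0.0158, blocked 0.115) and 2.14 for Nr4a3 (SE 0.41, limma adjusted p = 0.0157, blocked 0.0779). Nr4a2, the third receptor, had 79, 965 and 560 normalized counts in Col6a1+ and 109, 380 and 426 in Col6a1− CAFs. Its levels overlapped, replicate 1 was the lowest of both populations, and its log2 fold change of 0.43 ± 0.82 (SE) did not pass, but was 1.49 ± 0.63 (SE) without Col6a1+ replicate 1.

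The Krüppel-like factors had fold changes of both signs, and Klf2 alone of the 3 passed. Klf2 (ENSMUSG00000055148, chromosome 8 from 72319033 to 72321656, plus strand) had 352, 814 and 944 normalized counts in Col6a1+ and 145, 257 and 169 in Col6a1− CAFs, without overlap. Klf2 differed by a log2 fold change of 1.80 ± 0.41 (SE, limma adjusted p = 0.0342, blocked 0.0901). Klf6, a factor induced by injury and TGF-beta, had 421, 1239 and 749 and 863, 2040 and 2994, so that each Col6a1− library was above the Col6a1+ library of its number while the populations overlapped. The difference of -1.25 ± 0.49 (SE, limma adjusted p = 0.226) passed only in the second blocked fit (adjusted p = 0.0278, within 0.0278 to 0.606 over the alternatives). Klf4, which is expressed in differentiated epithelium as well as in stroma, had 50, 554 and 218 and 198, 525 and 658. The log2 fold change of Klf4 was -1.16 ± 0.75 (SE), and -0.23 ± 0.63 (SE) without Col6a1+ replicate 1.

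The AP-1 and related bZIP factors form the dimers that bind AP-1 and related elements, and none of the 9 passed by limma. At an unadjusted p under 0.05, 1 was higher and 2 were lower, against 6.63% and 9.4% of all genes tested. By limma-voom, 1 passed in each direction, against 2.92% and 3.02% of all genes. Junb had 12030, 13221 and 15662 normalized counts in Col6a1+ and 7902, 10174 and 10807 in Col6a1− CAFs. Jun had 9431, 11376 and 10672 and 6937, 7876 and 8243. Both were abundant in every library and did not overlap, with log2 fold changes of only 0.51 ± 0.29 (SE) and 0.45 ± 0.27 (SE). Junb overlaps Prdx2 on the other strand, which had 325 to 502 normalized counts in Col6a1+ and 678 to 810 in Col6a1− CAFs, and Jun overlaps the antisense gene Junos, with at most 44 in a library. Whether the counting used the strand is not given in the sources used here.

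Fosb showed the largest difference of the AP-1 factors with higher levels in Col6a1+ CAFs. It had 690, 1301 and 1110 normalized counts in Col6a1+ and 236, 543 and 380 in Col6a1− CAFs, without overlap, and its log2 fold change of 1.45 ± 0.37 (SE) was close to the threshold (limma adjusted p = 0.055). The call was made by limma-voom (adjusted p = 0.0431), with library size alone (adjusted p = 0.0467), and among genes averaging 10 or more (adjusted p = 0.044), and the alternatives spanned 0.00687 to 0.244. Fos had 317, 1578 and 1454 and 471, 840 and 623. Col6a1+ replicate 1 was the lowest of all 6 libraries for Fos while replicates 2 and 3 were the highest, and the log2 fold change was 0.52 ± 0.55 (SE), and 1.27 ± 0.30 (SE) without that library. Jund, which is constitutive in many cells, and Fosl2 had log2 fold changes of -0.07 ± 0.27 (SE) and 0.12 ± 0.31 (SE).

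Fosl1 and Atf3 lay in the opposite direction. Atf3, a stress-induced factor of the ATF/CREB family, had 808, 663 and 568 normalized counts in Col6a1+ and 1712, 1158 and 1600 in Col6a1− CAFs. Fosl1, which encodes FRA-1, had 74, 70 and 76 and 104, 194 and 167. Neither gene overlapped between the populations, and the 3 Col6a1+ libraries agreed closely for Fosl1. Their log2 fold changes were -1.13 ± 0.28 (SE, limma adjusted p = 0.0505) for Atf3 and -1.02 ± 0.38 (SE, limma adjusted p = 0.191) for Fosl1. Atf3 passed in limma-voom (adjusted p = 0.0313), with library size alone (adjusted p = 0.0426) and among genes averaging 10 or more without and with pairing (adjusted p = 0.0312 and 0.0203), and the alternatives spanned 0.0203 to 0.203. Maff, a small MAF protein, had 1 normalized count in Col6a1+ replicate 1, 91 and 77 in the other Col6a1+ libraries and 47, 73 and 82 in Col6a1− CAFs. Its log2 fold change of -1.45 ± 1.22 (SE) rested on that library, and was 0.35 ± 0.35 (SE) without it.

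**Figure D2:**
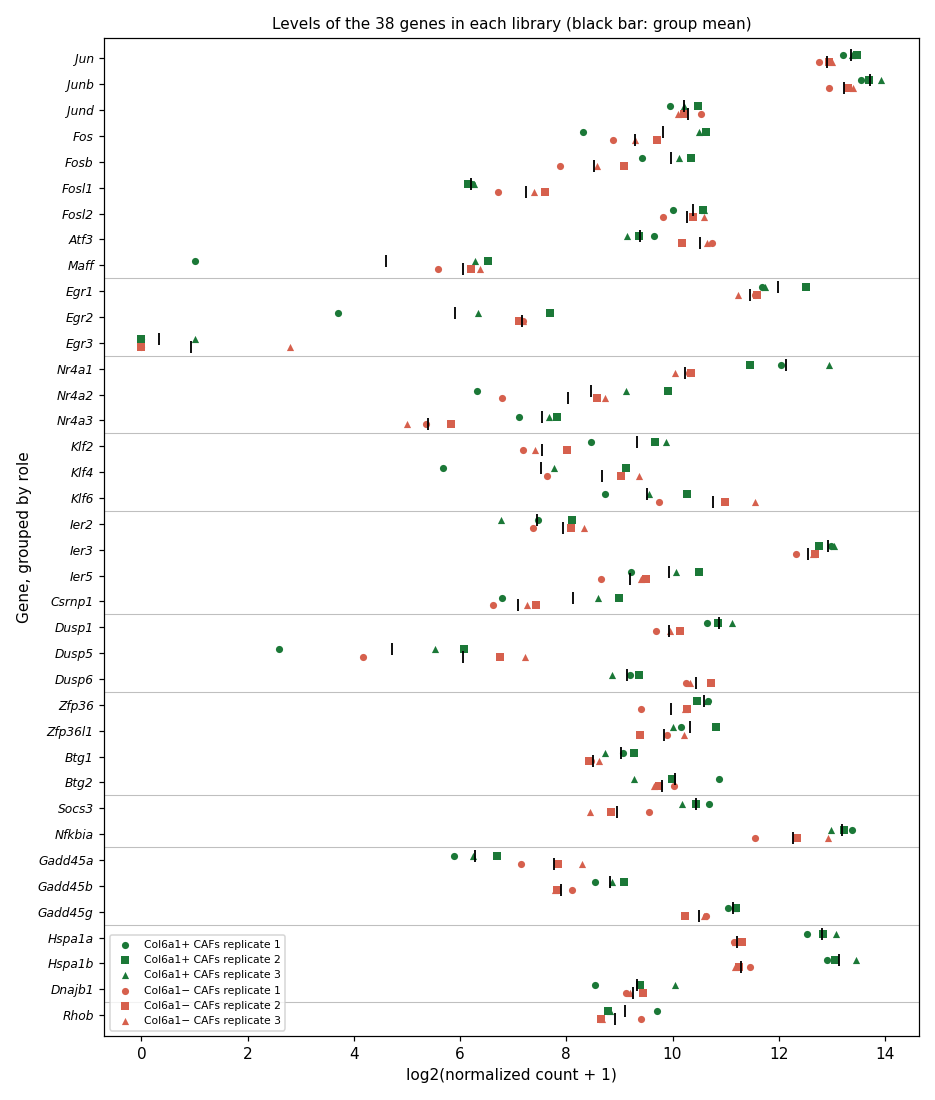
Level of each of the 38 genes in the 6 libraries as log2 of the normalized count plus 1 (horizontal axis), with Col6a1+ CAFs in green, Col6a1− CAFs in red, a marker shape for each replicate number and a black bar at the mean of each population. Green and red points are separate for Hspa1a, Hspa1b, Nr4a1, Nr4a3, Socs3 and Dusp6, whereas Maff, Egr2, Klf4 and Dusp5 have a single green circle, Col6a1+ replicate 1, far to the left.

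The EGR factors are zinc finger proteins at the end of the MAP kinase and serum response factor pathway, and none of the 3 passed by limma or limma-voom or had an unadjusted p under 0.05. Egr1 (ENSMUSG00000038418, chromosome 18 from 34859823 to 34864984, plus strand) had 3304, 5848 and 3408 normalized counts in Col6a1+ and 3022, 3065 and 2413 in Col6a1− CAFs. The libraries did not overlap, but 3065 and 3304 lie close to each other. The log2 fold change of Egr1 was 0.52 ± 0.31 (SE, limma adjusted p = 0.455), and 0.25 without Col6a1+ replicate 2. Egr2 had 12, 206 and 80 and 144, 137 and 145, so that its Col6a1− libraries were nearly equal while its Col6a1+ libraries lay on both sides of them. Egr2 had a fold change of -1.25 ± 0.81 (SE), and -0.14 ± 0.42 (SE) without Col6a1+ replicate 1. Egr3 was at 0, 0 and 1 and at 0, 0 and 6 normalized counts, where 0 in a library allows up to 3 counts (counting error only), and no fold is given.

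In the IER family, whose members are small proteins with roles in survival and growth signalling, and for Csrnp1, none passed by limma or limma-voom, and none had an unadjusted p under 0.05. Ier3 had 8055, 6965 and 8416 normalized counts in Col6a1+ and 5160, 6612 and 6414 in Col6a1− CAFs, without overlap and with a log2 fold change of 0.37 ± 0.27 (SE). Ier5 was above its partner in each of the 3 pairs of libraries, with a log2 fold change of 0.74 ± 0.38 (SE), and Ier2 had a log2 fold change of -0.48 ± 0.42 (SE). Csrnp1, an AXIN1-induced nuclear protein, had 109, 510 and 387 and 97, 171 and 152. The log2 fold change of Csrnp1 was 1.03 ± 0.54 (SE), and 1.70 ± 0.33 (SE, limma adjusted p = 0.0518) without Col6a1+ replicate 1. Csrnp1 overlaps Cx3cr1 on the same strand, which had 16 to 87 normalized counts in a library, so that its counts are uncertain.

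The MAP kinase phosphatases had fold changes of both signs. Dusp6 (ENSMUSG00000019960, chromosome 10 from 99263231 to 99267488, plus strand), the ERK-specific phosphatase that is itself induced by ERK signalling, had 589, 663 and 465 normalized counts in Col6a1+ and 1225, 1682 and 1291 in Col6a1− CAFs. Dusp6 differed by a log2 fold change of -1.29 ± 0.28 (SE, limma adjusted p = 0.0263, blocked 0.0729), that is 2.44-fold lower. Dusp1, which acts on p38 and JNK and is induced by stress and glucocorticoids, had 1614, 1852 and 2239 and 821, 1127 and 990. Both genes were separate between the populations, in opposite directions. The log2 fold change of Dusp1 was 0.96 ± 0.27 (SE, limma adjusted p = 0.079), and it passed in limma-voom (adjusted p = 0.0415), among genes averaging 10 or more (adjusted p = 0.0458) and in the second blocked fit (adjusted p = 0.0296), within 0.0296 to 0.234 over the alternatives. Dusp5, the nuclear ERK phosphatase, had 5, 66 and 45 and 17, 107 and 148 normalized counts. Each Col6a1− library was above its Col6a1+ partner for Dusp5, and its log2 fold change was -1.32 ± 1.00 (SE), or -0.25 ± 0.91 (SE) without Col6a1+ replicate 1.

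Of the inhibitors of cytokine signalling, Socs3 was higher in Col6a1+ CAFs and Nfkbia did not pass. Socs3 (ENSMUSG00000053113, chromosome 11 from 117966079 to 117970047, minus strand) had 1657, 1397 and 1151 normalized counts in Col6a1+ and 748, 460 and 350 in Col6a1− CAFs. Socs3 differed by a log2 fold change of 1.49 ± 0.33 (SE, limma adjusted p = 0.0303, blocked 0.0708), that is 2.8-fold. Nfkbia, which encodes the NF-κB inhibitor IκBα and is an NF-κB target, had 10646, 9568 and 8132 and 3017, 5209 and 7769. The populations did not overlap for either gene, although the highest Col6a1− library lay close to the lowest Col6a1+ library for Nfkbia, whose log2 fold change of 0.92 ± 0.36 (SE, limma adjusted p = 0.225) did not pass. The value for Nfkbia was 0.56 without Col6a1− replicate 1. Socs3 was highest in replicate 1 and lowest in replicate 3 of both populations.

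The mRNA decay and antiproliferative factors had higher means in Col6a1+ CAFs, but none of the 4 passed by limma or limma-voom, and none had an unadjusted p under 0.05. Zfp36, which encodes tristetraprolin and promotes decay of cytokine mRNAs, had 1627, 1407 and 1604 normalized counts in Col6a1+ and 679, 1244 and 1206 in Col6a1− CAFs. Btg1 had 537, 619 and 425 and 352, 343 and 390. Neither overlapped, and their log2 fold changes were 0.62 ± 0.30 (SE) and 0.53 ± 0.28 (SE). Without Col6a1− replicate 1, that of Zfp36 was 0.33. Zfp36l1 and the p53 target Btg2 overlapped, with log2 fold changes of 0.50 ± 0.32 (SE) and 0.23 ± 0.38 (SE), and the latter turned to -0.18 ± 0.29 (SE) without Col6a1+ replicate 1.

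The GADD45 proteins, which activate p38 and JNK and act in growth arrest, were separate between the populations in all 3 cases. None passed by limma or limma-voom. At an unadjusted p under 0.05, 2 were higher and 1 was lower, against 6.63% and 9.4% of all genes tested. Gadd45b had 373, 544 and 462 normalized counts in Col6a1+ and 274, 226 and 221 in Col6a1− CAFs. Gadd45g had 2114, 2349 and 2312 and 1586, 1209 and 1552. Both had the higher mean in the Col6a1+ libraries, and the log2 fold changes were 0.92 ± 0.29 (SE, limma adjusted p = 0.118) and 0.65 ± 0.26 (SE, limma adjusted p = 0.227). Gadd45a, the p53-regulated member, had 58, 103 and 75 and 141, 228 and 314, and was thus lower in each Col6a1+ library. Its log2 fold change was -1.49 ± 0.41 (SE, limma adjusted p = 0.0729), and it passed only in the second blocked fit (adjusted p = 0.0268, within 0.0268 to 0.293 over the alternatives). Rhob, a short-lived small GTPase, had 832, 438 and 450 and 682, 400 and 405. Its levels overlapped, with replicate 1 the highest in both populations, and its log2 fold change of 0.19 ± 0.35 (SE) turned to -0.11 ± 0.31 (SE) without Col6a1+ replicate 1.

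Because cell handling can differ between libraries, the 38 genes were also followed within each population. Their summed levels were 79993, 91419 and 96335 normalized counts in Col6a1+ CAFs (89249 ± 8384, SD, n = 3) and 48616, 58359 and 61833 in Col6a1− CAFs (56269 ± 6852, SD, n = 3). These sums were 2.41%, 2.88% and 2.81% of all normalized counts in Col6a1+ and 1.6%, 1.78% and 1.91% in Col6a1− CAFs, and the ranges did not overlap. The genes with the most reads dominate such a sum, and Junb, Jun, Nfkbia, Ier3, Hspa1b and Hspa1a together made up 62.9% of it. Within pairs of the same number, 24, 30 and 25 of the 38 genes were higher in the Col6a1+ library, with a median difference of 0.28, 0.56 and 0.38 on the log2 scale. Across all 3 pairs, 21 genes were higher and 7 were lower each time. The share of all genes was not counted for these pairs. Since the list was made with this contrast known, nothing is read from the counts.

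**Figure D3:**
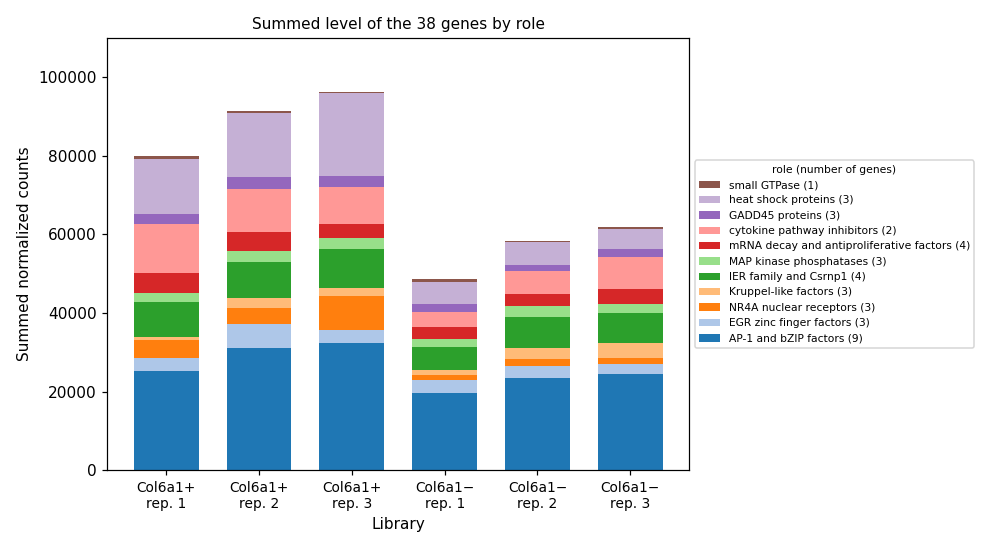
Summed normalized counts of the 38 genes (vertical axis) in each of the 6 libraries, with the bars divided by role and the number of genes of each role in the key. The 3 Col6a1+ bars lie above the 3 Col6a1− bars, and the heat shock proteins account for 14045, 16493 and 20978 of the normalized counts in Col6a1+ CAFs and for 5675, 5650 and 5196 in Col6a1− CAFs.

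Replicate 1 was the lowest of its population for 24 of the 38 genes in Col6a1+ and for 23 in Col6a1− CAFs. Of all genes averaging 10 or more, 46.1% and 34.3% were lowest in the same libraries. For 17 of the 38 genes (44.7%), replicate 1 was the lowest of both populations at once, against 21% of all genes at this level, and these were Jun, Junb, Fos, Fosb, Fosl2, Maff, Nr4a2, Klf2, Klf4, Klf6, Ier5, Csrnp1, Dusp1, Dusp5, Gadd45a, Hspa1a and Dnajb1. The opposite was seen for Atf3, Btg2, Socs3 and Rhob, which were highest in replicate 1 of both populations (10.5%, against 18.1% of all genes). Rhob was in addition lowest in replicate 2 of both populations. The median of a gene's log2 value minus the mean of the other libraries of its population was -0.41 in Col6a1+ replicate 1 and -0.35 in Col6a1− replicate 1, against -0.14 and 0.03 for all genes averaging 10 or more. What set replicate 1 apart was not tested. Without Col6a1+ replicate 1, 21 genes with higher and 4 with lower levels did not overlap between the populations, against 21.4% and 25% of all genes averaging 10 or more. The median log2 fold change of the 38 genes was then 0.55, and that of all genes tested moved from -0.27 to -0.13.

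**Figure D4:**
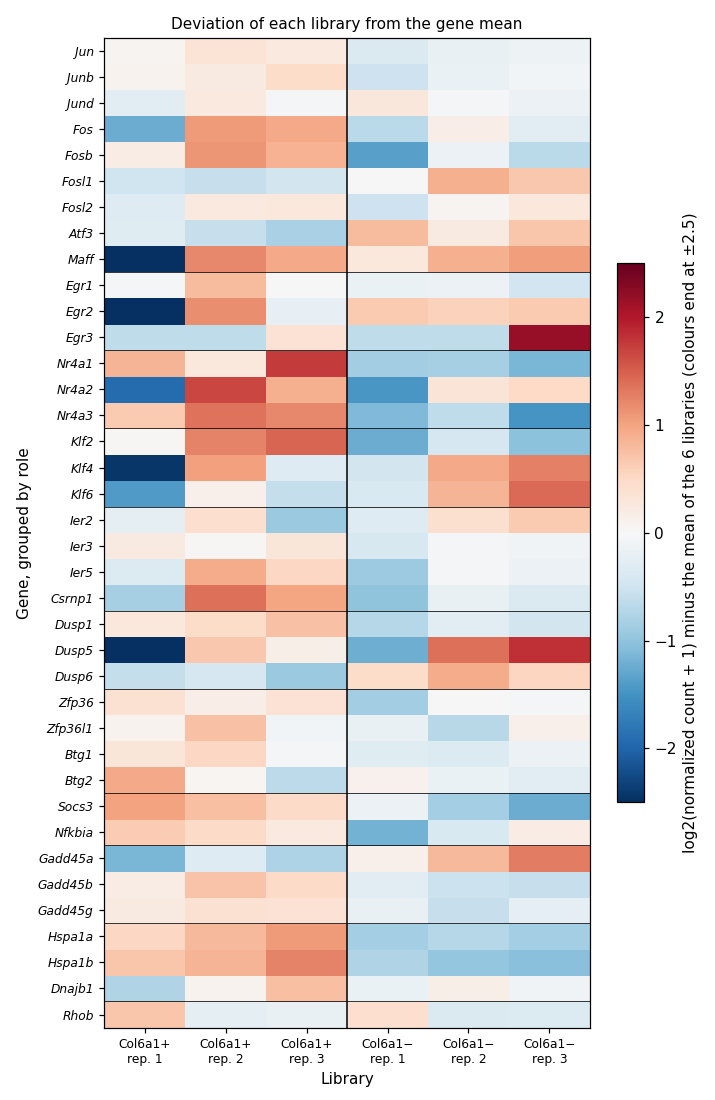
Deviation of each library (columns) from the mean of the 6 libraries on the log2 scale for the 38 genes (rows, grouped by role), with red above and blue below the mean. Col6a1+ replicate 1 is blue for Fos, Maff, Egr2, Nr4a2, Klf4, Klf6 and Dusp5, in contrast with Hspa1a, Hspa1b, Nr4a1, Nr4a3 and Socs3, which are red in all 3 Col6a1+ and blue in all 3 Col6a1− libraries.

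Among 46 other immediate early genes, 9 were higher in Col6a1+ CAFs (among them Il6, Cxcl1, Ccl2, Ptgs2, Cebpb, Id3, Cebpd and Ctgf), Dusp10 was lower and 36 did not pass. Of all genes tested, 2.66% passed with higher and 1.96% with lower levels, and of those averaging 100 normalized counts or more, 9.2% and 4.99%. The median log2 fold change of the 46 genes was 0.68, and that of all genes tested was -0.27. The list was chosen with earlier results known, and nothing is read from these shares. Il6, the cytokine that signals through STAT3, had 2525, 811 and 1046 normalized counts in Col6a1+ and 55, 63 and 23 in Col6a1− CAFs. Its log2 fold change of 4.87 ± 0.50 (SE, limma adjusted p = 9.53e-04, blocked 0.0612) was the largest of these genes. Cxcl1, a neutrophil chemokine, had 4688, 3905 and 9003 and 642, 1273 and 1243 (log2 fold change 2.45 ± 0.39 SE, limma adjusted p = 0.00641, blocked 0.0662). The monocyte chemokine gene Ccl2 had 1139, 537 and 602 and 166, 160 and 89 (log2 fold change 2.42 ± 0.39 SE, limma adjusted p = 0.00656, blocked 0.063). None of these 3 genes overlapped between the populations. Dusp10, a p38 and JNK phosphatase, had a log2 fold change of -1.72 ± 0.40 (SE, limma adjusted p = 0.0367).

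Upstream of these genes, none of 25 kinases and transcription factors passed in either direction by limma, over 26 rows because Map2k7 has a pair of identifiers. Of these rows, 1 was higher and 1 lower at an unadjusted p under 0.05, against 6.63% and 9.4% of all genes tested. In limma-voom, 1 was lower, against 3.02% of all genes. The median log2 fold change of the 26 rows was -0.07, and that of Srf, which encodes serum response factor, was 0.24 ± 0.26 (SE). Over the 3 lists of other genes together, 11 of 93 rows were higher and 1 was lower, against 2.66% and 1.96% of all genes tested. Among genes averaging 100 normalized counts or more, as many of these rows do, 9.2% passed with higher and 4.99% with lower levels. The lists were chosen with earlier results known, and nothing is read from these shares.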

How the data were processed

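The 6 libraries of 3′ mRNA sequencing (QuantSeq, Ion Proton) were 3 of Col6a1+ (GFP+) and 3 of Col6a1− (Tomato+) CAFs, grouped by their labels. The authors mapped the reads to mm10 with TopHat2 and Bowtie2, counted them per gene with GenomicRanges, and normalized them with DESeq through metaseqR. Their deposited table holds log2 values of the normalized count plus 1, whole normalized counts in every cell. It also holds 6 other columns of per-sample values and the authors' own comparison (fold changes and p-values from DESeq), none of which was used.

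Log2 values of the 2 groups were compared with limma 3.58.1 in R 4.3.3 (moderated variances with an intensity trend, prior df 6.48, residual df 4) over the 26402 genes whose libraries summed to 1 normalized count or more, keeping the pseudocount of 1, with Benjamini-Hochberg adjustment. Fold changes are thus on the log2(normalized count + 1) scale, which understates those of low genes. The members and lists were chosen with earlier results of these data known. Values of all 6 libraries are given for members that passed, that did not overlap between groups at a mean of at least 10, or that had the highest mean of their role, and the 5 other pathway genes with the largest changes among those that passed are named, except 1 that is not reported here. Further members are given with values where 1 library decides them. The test was checked on simulated counts, with differences larger than that of any member and without pairing. That check therefore does not cover calls of the size seen here. The depth per library gives the reads behind a value, and the p-values measure the spread between 3 pooled samples per group.

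Replicate numbers were read as pairs for the block only, and the main fit leaves this pairing out. Deviations from group means correlated at 0.245, 0.125 and 0.144 between libraries of the same number, over 13515 genes with a mean of at least 10. Between different numbers they correlated at -0.245 to 0.15. The highest of these, Col6a1+ replicate 2 with Col6a1− replicate 3, exceeded the same-number values of replicates 2 and 3. The correlations thus set only replicate 1 apart and do not establish the pairs. The alternatives were library size alone, a mean of at least 10, no filter beyond some spread between libraries, a pseudocount of 0.1, limma-voom, the replicate block, each library left out, and, added after seeing the data, that mean filter and the block together. Python 3.11.15, NumPy 2.4.6, pandas 2.3.3, Biopython 1.88 and Matplotlib 3.10.9 were used. Promoters are from RefSeq on GRCm38.p6, the assembly of mm10.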

Additional observations from a re-analysis of the deposited data

How the results depend on the processing

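With 3 libraries per group, calls depended on the setting more often than signs did: 8 of the 38 genes (Btg2, Dnajb1, Egr3, Fosl2, Jund, Maff, Nr4a2 and Rhob, none of them called) took both signs over the alternatives. With the replicate block 0 were called higher and 0 lower, and 0 and 0 of the other pathway genes. The block over genes with a mean of at least 10, added after seeing the data, called 8 higher and 4 lower, and of the other pathway genes 16 higher and 3 lower. Lower calls were 2 with library size alone, with limma-voom and with a mean of at least 10, and of the other pathway genes 2 with limma-voom and 0 with a pseudocount of 0.1. Of the genes tested in each fit, 2.38%, 3.02%, 4.5% and 1.27% were called lower with library size, limma-voom, that mean and that pseudocount. Over the fits that left out 1 library, 0 to 4 genes were called higher and 0 lower, the other pathway genes gave 0 to 8 higher and 0 to 1 lower, and the median log2 fold change ranged from 0.31 to 0.55. Of the 28 genes named by rule, Rhob alone reversed, to -0.11 without Col6a1+ replicate 1, in a range of -0.11 to 0.44 over the fits without 1 library. The cause of these changes was not tested, and the fits without 1 library also had fewer samples. Of the 28, only 12 had a call in the main fit. All 12 lost it with the block, and 4 to 12 of them lost it when 1 library was left out. Taking all 26401 genes with any spread gave the same counts of calls among the 38. A level under 3 normalized counts, as for Egr3 and for Maff in Col6a1+ replicate 1, could not be compared at this depth.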
